A study of Mus musculus with 6 samples.

Results

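Respiratory complexes II to V are the part of the mitochondrial respiratory chain that carries electrons from succinate and from reduced coenzyme Q to oxygen and uses the resulting proton gradient to make ATP. The genes described here are the nuclear genes of succinate dehydrogenase (complex II), the cytochrome bc1 complex (complex III), cytochrome c, cytochrome c oxidase (complex IV) and ATP synthase (complex V). They were chosen by name: Sdha to Sdhd, Cyc1, Cycs and every mouse symbol that begins with Uqcr, with Cox followed by a digit from 4 to 8, or with Atp5. Of 58 rows with such a name, 7 pseudogenes marked by "-ps" and 3 rows with under 10 reads over the 6 libraries were left out. This gave 48 genes of the 54532 in the table, 4 of complex II, 9 of complex III, the cytochrome c gene, 17 of complex IV and 17 of complex V. Of these, 47 passed the filter on low counts, and Cox6c2, annotated as a processed pseudogene of complex IV subunit 6c, was not tested, with 2, 1 and 4 reads in WT and 2, 0 and 9 in ACKR4_KO.

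RNA came from hearts taken at day 14 after myocardial infarction from C57BL/6 mice of 8 to 10 weeks. There were 3 libraries of wild type (WT) mice and 3 of mice with the genotype ACKR4-KO (ACKR4_KO), which lack a scavenging receptor for chemokines. All 6 libraries came from infarcted hearts. The labels give no uninfarcted heart, no batch and no description of how the allele was made or which part of the heart was used. The values are reads per gene, given below as CPM, counts relative to the size of the library after scaling by the trimmed mean of M values (TMM). The labels number the libraries as replicates and do not say whether hearts were pooled, so p-values measure the spread between these libraries.

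Cardiomyocytes are packed with mitochondria and draw nearly all of their ATP from oxidative phosphorylation, so transcripts of these complexes are among the most abundant of the heart. Complexes III, IV and V also hold subunits encoded by mitochondrial DNA, while complex II is wholly nuclear-encoded. Several subunits of complex IV exist in a form of heart and skeletal muscle and a form found in most tissues, made from separate genes. Many of the promoters are known to be bound by nuclear respiratory factor NRF1, by GABP, which is an ETS factor, and by oestrogen-related receptors (ERR) that act with the coactivator PGC-1.

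The promoters of 4 genes are shown because these genes carry the patterns described below: Sdha, the complex II gene whose groups did not overlap, Atp5k, whose fold change had the largest standard error of the 47 genes, and the muscle and ubiquitous forms of complex IV subunit 8, Cox8b and Cox8a. The windows run from 250 bases before the start site to 50 after it, are from RefSeq on GRCm38.p6, and are written 5′ to 3′ on the gene's strand, which is the minus strand for all 4. Capitals mark matches to GCGCA, any base and GCGC (NRF1), CCGGAAG (ETS), ATGGCGGC (YY1), GGGCGG (SP1), AAGGTCA (ERR) and CTA, any 4 bases and TAG (MEF2), searched on both strands. The windows are chr13:74350191-74350490 for Sdha, chr5:108434350-108434649 for Atp5k, chr7:140900397-140900696 for Cox8b and chr19:7217567-7217866 for Cox8a.
Sdha: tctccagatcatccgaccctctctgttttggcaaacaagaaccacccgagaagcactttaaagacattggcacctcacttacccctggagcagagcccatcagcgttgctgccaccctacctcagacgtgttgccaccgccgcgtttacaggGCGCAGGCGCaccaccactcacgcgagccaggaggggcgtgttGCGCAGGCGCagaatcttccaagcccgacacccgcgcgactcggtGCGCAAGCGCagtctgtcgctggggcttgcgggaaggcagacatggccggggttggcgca
Atp5k: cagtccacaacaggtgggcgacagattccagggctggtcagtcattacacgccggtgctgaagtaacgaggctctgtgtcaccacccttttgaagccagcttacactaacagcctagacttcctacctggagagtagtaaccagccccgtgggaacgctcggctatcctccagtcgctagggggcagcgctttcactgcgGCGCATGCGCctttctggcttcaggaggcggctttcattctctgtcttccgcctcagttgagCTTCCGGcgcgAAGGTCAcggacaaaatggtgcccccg
Cox8b: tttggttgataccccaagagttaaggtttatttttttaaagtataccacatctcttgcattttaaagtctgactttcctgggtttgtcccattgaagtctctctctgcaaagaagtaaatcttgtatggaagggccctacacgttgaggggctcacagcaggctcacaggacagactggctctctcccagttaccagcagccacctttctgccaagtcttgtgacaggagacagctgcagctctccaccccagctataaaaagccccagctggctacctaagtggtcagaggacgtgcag
Cox8a: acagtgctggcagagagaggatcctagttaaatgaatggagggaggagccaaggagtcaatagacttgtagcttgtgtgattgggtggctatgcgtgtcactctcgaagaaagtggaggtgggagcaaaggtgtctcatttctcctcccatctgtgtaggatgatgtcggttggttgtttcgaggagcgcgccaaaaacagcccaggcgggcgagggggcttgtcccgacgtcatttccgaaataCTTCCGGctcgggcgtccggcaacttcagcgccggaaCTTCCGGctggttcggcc

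The Sdha window held 3 NRF1 matches, the Atp5k window 1 match each for NRF1, ETS and ERR, the Cox8a window 2 ETS matches and the Cox8b window none of the 6 motifs. RefSeq windows were found for 34 of the 48 genes, 37 windows in all. NRF1 letters were in 10 of the 37 windows (27.0%) and in 4.60% of the 32851 windows of all genes. ETS letters were in 32.4% of the genes' windows against 8.86% of all windows, and ERR letters in 13.5% against 4.72%. SP1 letters were in 32.4% against 35.7%, MEF2 letters in 1 window (2.70%) against 3.69%, and YY1 letters in 0 windows against 2.24%. No matches to different motifs shared bases. A match is only a run of letters and does not show that a factor binds there.

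The libraries held 9422462 to 13910358 counted reads, of which 15.8% to 21.4% fell on genes of mitochondrial DNA. The targeted gene Ackr4 had 165, 151 and 169 reads in WT and 4, 1 and 12 reads in ACKR4_KO. Markers of other tissues were also read: 9 lung epithelial genes summed to between 41.2 and 255 CPM in WT and to between 0.404 and 1.92 CPM in ACKR4_KO, and 8 fast skeletal muscle genes summed to 4.67, 109 and 144 CPM in WT replicates 1, 2 and 3 and to at most 10.8 CPM in ACKR4_KO. White adipocyte genes, 5 in all, summed to 295, 45.6 and 11.0 CPM in WT and to 97.6, 17.8 and 4.10 CPM in ACKR4_KO. Defining genes of heart muscle were present in every library, with 19 sarcomere genes summing to between 41757.9 and 70616.4 CPM.

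As a whole, genes of complexes II to V had higher levels in ACKR4_KO, by a median of 0.40 on the log2 scale (1.32-fold), and no gene passed the test. Of the 47 genes tested, 46 had a log2 fold change above 0, where 52% of all 14406 genes did, and the median over all genes was 0.01. By edgeR's quasi-likelihood test with Benjamini-Hochberg adjustment over all genes, 0 of the 47 passed an adjusted p of 0.05, with adjusted p from 0.661 to 0.999, and 0% of all genes passed. The targeted gene Ackr4 did not pass either, with a log2 fold change of -4.70 (SE 0.48) and an edgeR adjusted p of 0.099. No gene tested had a smaller adjusted p, so a gene that did not pass is not shown to be unchanged. DESeq2 called 0 of the 47 (0.271% of all genes) and limma-voom called 0. At an unadjusted p under 0.05, 18 of the 47 were higher and 0 lower by edgeR, where 3.81% of all genes were higher. DESeq2 gave 27 and limma-voom 16 at that unadjusted level. Their own shares over all genes were not worked out, so these counts cannot be set against the edgeR share. In 10 of the 47 genes every ACKR4_KO library lay above every WT library in TMM-scaled CPM, where 6.53% of all genes did so. The genes vary together from library to library, so these counts are not independent of each other.

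The summed level of the 47 genes was 25630.5, 28236.8 and 23736.2 CPM in WT replicates 1, 2 and 3 and 28209.9, 39628.3 and 32837.2 CPM in ACKR4_KO replicates 1, 2 and 3. ACKR4_KO replicate 1 thus lay just under WT replicate 2, and the other knockout libraries lay above all WT libraries. Replicate 2 exceeded the highest WT library in 46 of 47 genes, replicate 3 in 32 and replicate 1 in 13. Over all genes tested these shares were 35.4%, 34.2% and 28.2%, so the share in replicate 1 (27.7%) was near that of all genes. The highest of the 6 libraries was ACKR4_KO replicate 2 for 30 genes, replicate 3 for 16 and WT replicate 2 for Cox4i2, where 24.6% of all genes were highest in ACKR4_KO replicate 2 and 23.8% in replicate 3.

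**Figure D1:**
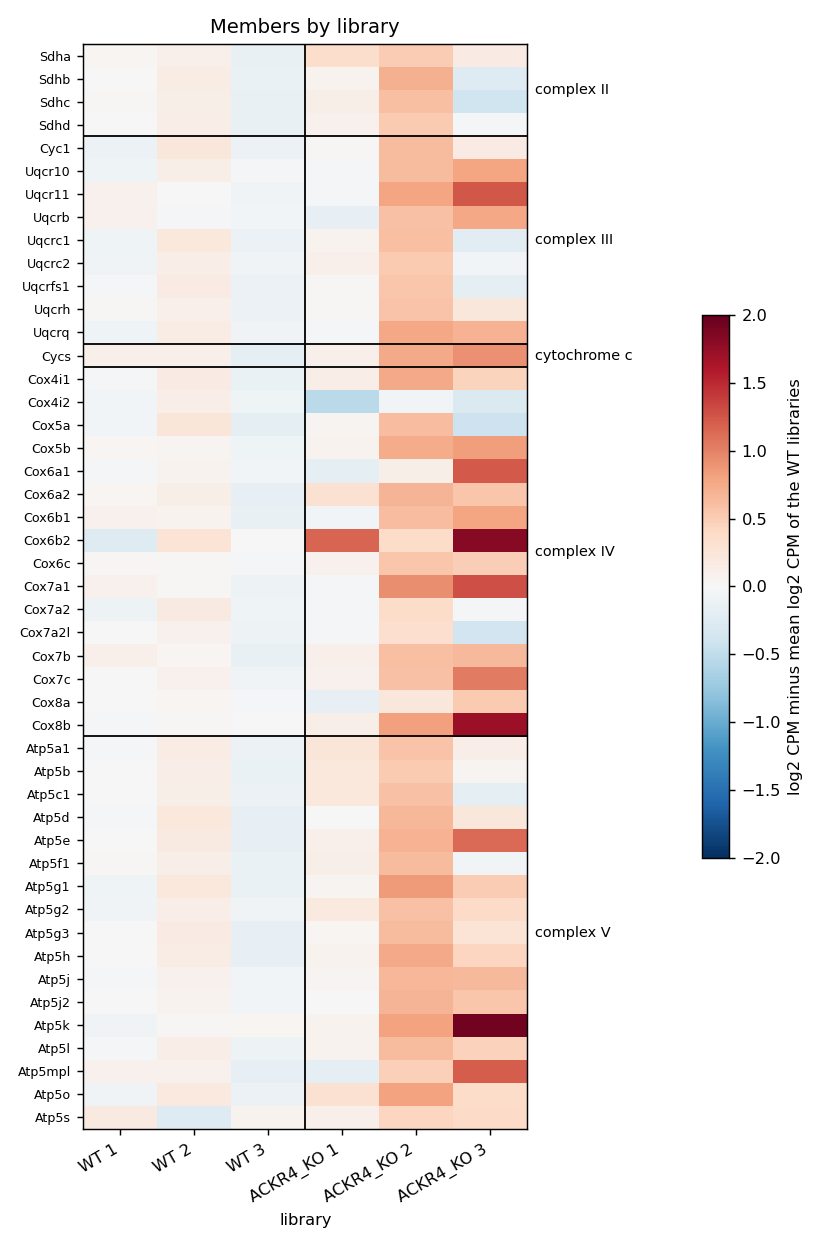
Level of each of the 47 tested genes in each library, as log2 CPM minus the mean log2 CPM of the 3 WT libraries, grouped by complex. ACKR4_KO replicate 2 is above WT in nearly all rows, replicate 1 is close to WT, and replicate 3 is high in some rows and low in others.

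Heart muscle genes had a similar pattern over the libraries. The 19 sarcomere genes, such as Myh6 and Actc1, summed to 48687, 52652.5 and 41757.9 CPM in WT and to 51838.9, 70616.4 and 63299.1 CPM in ACKR4_KO, and 18 of the 19 had a log2 fold change above 0, with a median of 0.30. The ratio of the summed respiratory genes to the summed sarcomere genes was 0.526, 0.536 and 0.568 in WT and 0.544, 0.561 and 0.519 in ACKR4_KO. The groups overlapped, with ACKR4_KO replicate 3 below all WT libraries and WT replicate 3 above all ACKR4_KO libraries, at 0.544 ± 0.0220 in WT and 0.541 ± 0.0214 in ACKR4_KO (mean ± SD, n = 3 each), and the exact permutation test gave p = 1 (two-sided, smallest possible 0.1). By complex, the ratio in ACKR4_KO replicate 3 was below all WT libraries for complexes II, III and V and above them for complex IV. For complex IV it was 0.1435 in that library and 0.1192, 0.1175 and 0.1278 in WT. With library sizes set to the sarcomere reads, 25 of 47 genes were higher and the median log2 fold change was 0.02. In these bulk samples more muscle in the tissue and more RNA per muscle cell cannot be told apart. Fibroblast and scar genes, 14 in all, summed to 14422.7, 16147.1 and 15695.4 CPM in WT and to 12502.3, 5470.25 and 20316 CPM in ACKR4_KO. They were lowest in ACKR4_KO replicate 2, where the respiratory genes were highest. Their highest sum was in ACKR4_KO replicate 3, where the respiratory genes also lay above all WT libraries. Of the 14 genes, 2 had a log2 fold change above 0. The part of tissue makeup in the respiratory gene levels was not tested.

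By complex, the median log2 fold change was 0.21 for complex II, 0.29 for complex III, 0.48 for complex IV and 0.40 for complex V, and cytochrome c had 0.62. Without ACKR4_KO replicate 3 the medians were 0.40, 0.34, 0.36 and 0.40 and that of cytochrome c was 0.46, so the order was not kept. Of the 47 genes, 22 moved by over 1.5 times or turned without replicate 3, among them Uqcrb (0.45 to 0.26), Cox7c (0.62 to 0.36) and Atp5mpl (0.61 to 0.19), and 21 did without replicate 2. Without ACKR4_KO replicate 2 they were -0.03, 0.13, 0.41 and 0.28, with 39 of 47 genes higher. The complex II score, the mean deviation of its genes from their 6-library mean in log2 CPM, was -0.08, 0.02 and -0.24 in WT and 0.05, 0.48 and -0.23 in ACKR4_KO. The complex IV score was -0.21, -0.10 and -0.29 in WT and -0.14, 0.31 and 0.43 in ACKR4_KO. Replicate 3 of ACKR4_KO was therefore the second lowest library for complex II and the highest for complex IV. No test of complex against complex was made, since the genes of a complex are not replicates.

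**Figure D2:**
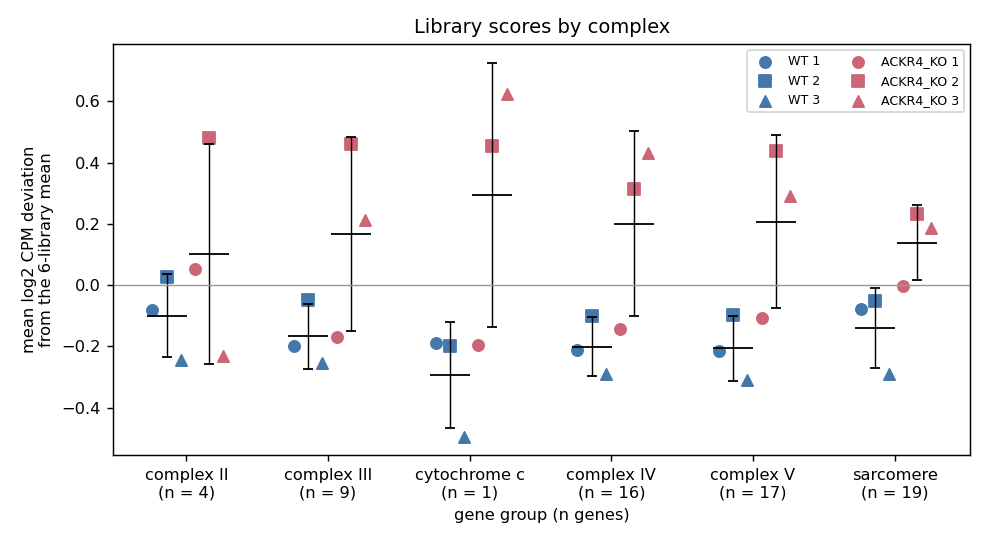
Mean log2 CPM deviation from the 6-library mean for the genes of each complex and for the sarcomere genes, 1 point per library, with the mean and SD of each group in black. ACKR4_KO replicate 2 is high for every group, while replicate 3 runs from -0.23 for complex II to 0.43 for complex IV and 0.62 for cytochrome c.

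In ACKR4_KO replicate 3 the level of these genes followed the length of their transcripts. Taking for each gene the best-supported principal transcript in GENCODE M21, 18 tested genes had transcripts under 600 bases, 13 had 600 to under 1000 and 16 had 1000 or more. The median deviation of replicate 3 was 0.67 for the short, 0.21 for the middle and -0.14 for the long transcripts. Over all tested genes the order in replicate 3 was the same, with 0.21, 0.17 and -0.01 in these classes. In ACKR4_KO replicate 2 the all-gene medians were 0.12, 0.14 and -0.01, so short transcripts were not high in replicate 3 alone. For the 47 genes, the medians were 0.38, 0.47 and 0.44 in ACKR4_KO replicate 2 and -0.26, -0.13 and -0.01 in replicate 1. Spearman's rho across the 47 genes between length and deviation was -0.70 in replicate 3, 0.26 in replicate 2 and 0.62 in replicate 1, and between 0.43 and 0.57 in the WT libraries. Across all 14394 genes with a length it was -0.14 in replicate 3, -0.17 in ACKR4_KO replicate 2 and -0.18 in WT replicate 2. In the other libraries it lay between 0.14 and 0.25. These are descriptions over genes that share a library, and each deviation is taken from a mean that includes replicate 3. Complex II genes, with transcripts of 1142 to 3171 bases, were all in the long class. A correction for transcript length and GC content fitted on all genes, added after the data were seen, gave medians of 0.21, 0.29, 0.39 and 0.37 for complexes II, III, IV and V. It did not take out the whole relation to length. Across the 47 genes rho between length and log2 fold change was -0.60 before the correction and -0.39 after it.

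**Figure D3:**
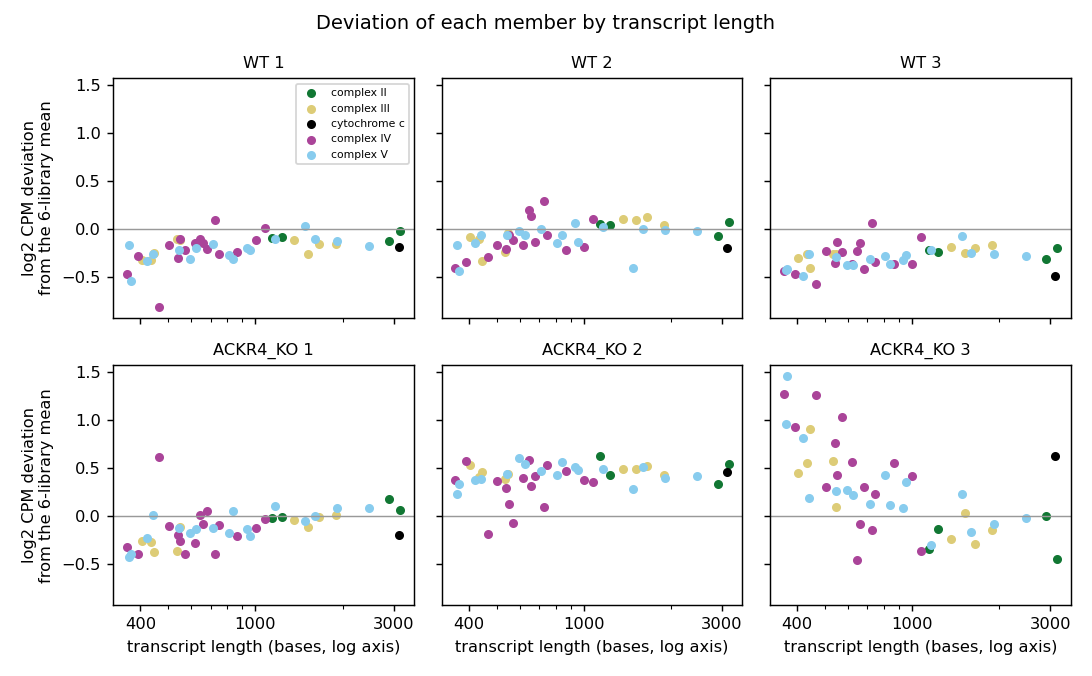
Deviation of each tested gene from its 6-library mean (log2 CPM) against the length of its transcript in bases on a log axis, 1 panel per library, coloured by complex. Only in the panel of ACKR4_KO replicate 3 do the shortest transcripts lie highest, with rho = -0.70 across the 47 genes.

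Complex II oxidises succinate and hands the electrons to coenzyme Q. Sdha, the flavoprotein that binds succinate, was at 953, 992 and 838 CPM in WT and 1175, 1310 and 1037 CPM in ACKR4_KO. It was the complex II gene with no overlap between the groups and had a log2 fold change of 0.34 (SE 0.17), with an edgeR adjusted p of 0.682. Sdhb, the iron-sulphur subunit and the most abundant of the 4 per transcript length, was at 591, 656 and 542 CPM in WT and 621, 973 and 499 CPM in ACKR4_KO. The membrane anchors Sdhc and Sdhd bind the complex to the inner membrane. Sdhc was at 316, 337 and 279 CPM in WT and 336, 468 and 235 CPM in ACKR4_KO. Sdhd was at 337, 368 and 302 CPM in WT and 354, 479 and 325 CPM in ACKR4_KO. In Sdhb, Sdhc and Sdhd only ACKR4_KO replicate 2 exceeded all WT libraries, and in Sdhb and Sdhc replicate 3 was the lowest of the 6. Their log2 fold changes were 0.23, 0.16 and 0.20, and without ACKR4_KO replicate 2 those of Sdhb and Sdhc were -0.09 and -0.12.

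Complex III passes electrons from reduced coenzyme Q to cytochrome c. Uqcrq, a small subunit that contacts coenzyme Q, had the highest level of the complex per transcript length, 1473 CPM per kilobase over the 6 libraries. It was at 462, 544 and 468 CPM in WT and 482, 835 and 789 CPM in ACKR4_KO. Uqcrh, the hinge protein between cytochrome c1 and cytochrome c, was at 387, 410 and 351 CPM in WT and 389, 568 and 448 CPM in ACKR4_KO. In both genes replicates 2 and 3 of ACKR4_KO exceeded all WT libraries and replicate 1 did not. The smallest p values belonged to a pair of small subunits. Uqcr11 was at 219, 206 and 196 CPM in WT and 201, 358 and 487 CPM in ACKR4_KO. Its log2 fold change was 0.75 (SE 0.28). Uqcr10 was at 213, 247 and 222 CPM in WT and 221, 352 and 391 CPM in ACKR4_KO, with 0.50 and a standard error of 0.21. The edgeR adjusted p was 0.661 and 0.664, and without ACKR4_KO replicate 3 the log2 fold changes were 0.44 and 0.34.

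The lowest log2 fold changes of complex III were 0.16 for Uqcrfs1 and 0.18 for Uqcrc1. Uqcrfs1, the Rieske iron-sulphur protein, was at 639, 742 and 607 CPM in WT and 673, 969 and 585 CPM in ACKR4_KO. Uqcrc1, a core protein, was at 878, 1069 and 851 CPM in WT and 973, 1406 and 796 CPM in ACKR4_KO. Replicate 3 of ACKR4_KO was the lowest library in both, and the log2 fold change without replicate 2 was -0.07 in both. Cyc1, Uqcrc2 and Uqcrb had log2 fold changes of 0.29, 0.21 and 0.45.

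Cytochrome c shuttles electrons from complex III to complex IV and starts the caspase cascade when it leaves the mitochondrion. Cycs (chromosome 6, 50562563 to 50566538 on GRCm38) was at 469, 466 and 379 CPM in WT and 467, 734 and 824 CPM in ACKR4_KO. ACKR4_KO replicate 1 lay within the WT range and the other knockout libraries above it. The log2 fold change was 0.62 (SE 0.22), with an edgeR adjusted p of 0.661, and it was 0.71 after the length and GC correction. Its annotated transcript of 3123 bases was shorter only than that of Sdhc, so Cycs stood apart from the length pattern of replicate 3.

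Complex IV reduces oxygen to water. Its most abundant nuclear genes per transcript length were Cox4i1 and Cox6a2, at 1866 and 1708 CPM per kilobase. Cox4i1, the main form of the largest nuclear subunit, was at 1138, 1306 and 1068 CPM in WT and 1275, 1963 and 1590 CPM in ACKR4_KO. Cox6a2, the heart and muscle form of subunit 6a, was at 981, 1033 and 850 CPM in WT and 1178, 1523 and 1404 CPM in ACKR4_KO. All ACKR4_KO libraries lay above all WT libraries in Cox6a2, which had a log2 fold change of 0.52 (SE 0.17) and the smallest unadjusted p of all 47 genes (0.0162, edgeR adjusted p = 0.661). The groups overlapped in Cox4i1, with a log2 fold change of 0.46.

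Cox4i2, the alternative subunit 4 known from lung, pericytes and low oxygen, was the gene with a negative log2 fold change, -0.29 (SE 0.17). It was at 16.1, 18.4 and 15.8 CPM in WT and 11.5, 16.1 and 13.6 CPM in ACKR4_KO, with overlap between the groups. Lung epithelial genes summed to 255, 41.2 and 123 CPM in WT replicates 1, 2 and 3 and to 0.404, 0.922 and 1.92 CPM in ACKR4_KO replicates 1, 2 and 3. The 10 pericyte and smooth muscle genes summed to 2032, 2122 and 2334 CPM in WT and 1829, 2001 and 1682 CPM in ACKR4_KO, and 7 of the 10 had a negative log2 fold change. The part of either in the level of Cox4i2 was not tested.

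Set against each other within a library, subunit 4 genes separated the genotypes. The ratio of Cox4i1 reads to Cox4i2 reads was 70.7, 70.9 and 67.7 in WT and 111, 122 and 117 in ACKR4_KO. The groups did not overlap, and the difference of 0.74 on the log2 scale compared with SDs of 0.04 in WT and 0.07 in ACKR4_KO. The exact permutation test gave p = 0.1, the smallest that 3 against 3 libraries allow, and 0.35 after adjustment over 7 pairs. With any library left out the difference stayed between 0.71 and 0.78. Cox4i1 lies on chromosome 8 from 120668222 to 120674207 and Cox4i2 on chromosome 2 from 152754173 to 152765037 of GRCm38. This ratio does not depend on the scaling of the libraries, and a change in cell makeup and a change within cells cannot be told apart in it.

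The muscle form of subunit 8 was also higher relative to the ubiquitous form. Cox8b was at 257, 268 and 262 CPM in WT and 285, 462 and 863 CPM in ACKR4_KO, with no overlap. Cox8a was at 147, 151 and 143 CPM in WT and 132, 172 and 211 CPM in ACKR4_KO, with overlap. Their ratio was 1.75, 1.78 and 1.83 in WT and 2.16, 2.69 and 4.09 in ACKR4_KO, a log2 difference of 0.69 with SDs of 0.03 and 0.47 (exact permutation p = 0.1, adjusted p = 0.35). The ACKR4_KO ratios all lay above the WT ratios, and without ACKR4_KO replicate 3 the difference was 0.43. Cox8b lies on chromosome 7 from 140898945 to 140900446 and Cox8a on chromosome 19 from 7215153 to 7217616 of GRCm38, and as printed above the Cox8b window lacked the ETS letters that the Cox8a window held. The Cox8b transcript of 360 bases was the shortest of the tested genes, while Cox8a has 550.

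Subunit 7a gave a ratio with overlap. Cox7a1, the muscle form, was at 313, 302 and 275 CPM in WT and 289, 567 and 725 CPM in ACKR4_KO. Cox7a2, the ubiquitous form, was at 208, 253 and 208 CPM in WT and 217, 285 and 217 CPM in ACKR4_KO. The ratio of Cox7a1 to Cox7a2 was 1.51, 1.20 and 1.32 in WT and 1.33, 1.99 and 3.34 in ACKR4_KO, and the log2 difference of 0.63 (exact permutation p = 0.2, adjusted p = 0.42) was 0.29 without ACKR4_KO replicate 3. Cox7a2l, linked to supercomplexes of complexes III and IV, was at 240, 256 and 225 CPM in WT and 233, 303 and 185 CPM in ACKR4_KO. Its log2 fold change of 0.002 was the one nearest to 0.

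In subunit 6a the knockout libraries pointed in different directions. Cox6a1, the ubiquitous form, was at 127, 137 and 125 CPM in WT and 113, 140 and 304 CPM in ACKR4_KO. Replicate 3 alone stood above the rest, and without it the log2 fold change of 0.52 became -0.03. The ratio of Cox6a2 to Cox6a1 was 7.72, 7.55 and 6.79 in WT and 10.4, 10.9 and 4.62 in ACKR4_KO. The log2 difference was 0.13 (exact permutation p = 1), and it was 0.54 without ACKR4_KO replicate 3, -0.05 without replicate 1 and -0.08 without replicate 2. Cox6b1, the common form of subunit 6b, was at 333, 329 and 286 CPM in WT and 302, 484 and 546 CPM in ACKR4_KO. Cox6b2, known as the testis form, was near the limit of detection, with 12, 13 and 16 reads in WT and 31, 14 and 45 in ACKR4_KO. Its groups did not overlap in TMM-scaled CPM, with ACKR4_KO replicate 2 at 1.435 CPM just above WT replicate 2 at 1.337 CPM. That separation hangs on the scaling of the libraries. The log2 fold change of Cox6b2, 1.23, had a standard error of 0.43 (edgeR adjusted p = 0.661). The ratio of Cox6b1 to Cox6b2 was 356, 246 and 259 in WT and 121, 337 and 139 in ACKR4_KO, with overlap (exact permutation p = 0.3, adjusted p = 0.42).

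**Figure D4:**
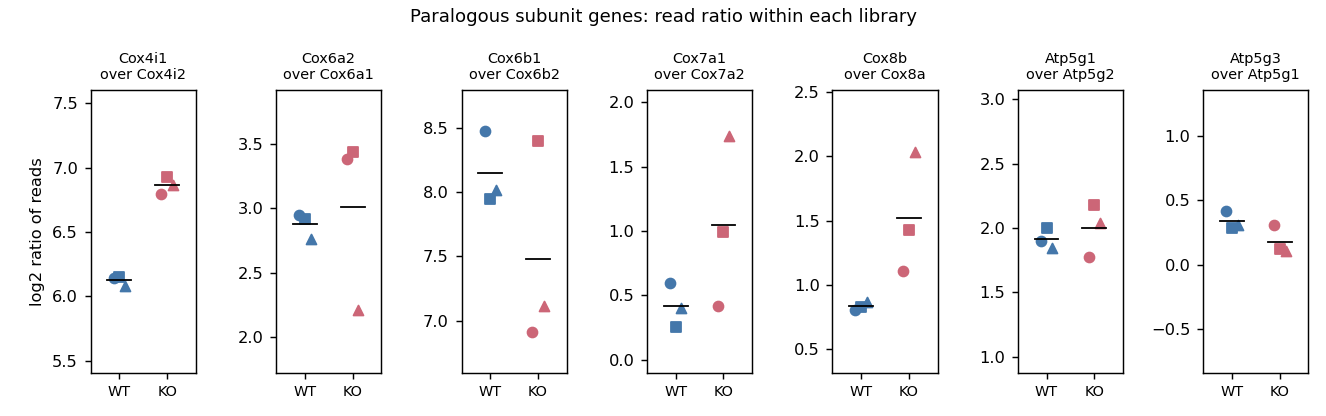
Log2 ratio of reads between paralogous subunit genes, 1 panel per pair, with WT in blue, ACKR4_KO in red (marked KO), a point per library and a line at each mean; all panels span the same number of log2 units. The groups are apart for Cox4i1 over Cox4i2 and for Cox8b over Cox8a and overlap in the other 5 pairs.

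Of the remaining complex IV genes, Cox5b, Cox6c and Cox7c had no overlap between the groups, with log2 fold changes of 0.58, 0.39 and 0.62. In Cox5b and Cox7c ACKR4_KO replicate 1, at 387 and 394 CPM, lay just above WT replicate 2, at 384 and 391 CPM. That separation hangs on the scaling of the libraries. Cox7b had a log2 fold change of 0.46. Cox5a, a subunit of the matrix side, had 0.14, or -0.17 without ACKR4_KO replicate 2, and was at 364, 451 and 335 CPM in WT and 394, 587 and 285 CPM in ACKR4_KO, the opposite behaviour of replicates 2 and 3 that the long transcripts showed, although its transcript has 645 bases. Cox6c overlaps the opposite-strand gene Vps13b, and the strand setting of the counting is not stated in the labels.

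Complex V, the ATP synthase, turns a ring of c subunits in the membrane to drive the catalytic head of alpha and beta subunits. Atp5b, the catalytic beta subunit, had the highest level per transcript length of all 47 genes, 2205 CPM per kilobase, and was at 3821, 4161 and 3489 CPM in WT and 4435, 5489 and 3956 CPM in ACKR4_KO. Atp5a1, the alpha subunit, was at 3038, 3402 and 2826 CPM in WT and 3653, 4585 and 3389 CPM in ACKR4_KO. In both genes replicates 1 and 2 of ACKR4_KO lay above all WT libraries and replicate 3 did not. Their log2 fold changes were 0.28 and 0.33, and the lowest of the complex were those of Atp5c1, the gamma subunit, and Atp5f1, the b subunit, at 0.23 and 0.26. Atp5c1 was at 800, 871 and 736 CPM in WT and 923, 1207 and 698 CPM in ACKR4_KO. Atp5f1 was at 686, 734 and 619 CPM in WT and 734, 1051 and 654 CPM in ACKR4_KO.

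The c subunit is made from 3 genes that encode the same mature protein with different targeting sequences. Atp5g1 was at 637, 780 and 613 CPM in WT and 702, 1209 and 957 CPM in ACKR4_KO. Atp5g3 was at 847, 949 and 760 CPM in WT and 871, 1312 and 1030 CPM in ACKR4_KO. Atp5g2 was at 170, 195 and 171 CPM in WT and 205, 267 and 232 CPM in ACKR4_KO. Of these Atp5g2 alone had no overlap between the groups, with a log2 fold change of 0.40 and a standard error of 0.14, while Atp5g1 had 0.50 and Atp5g3 0.33. The ratio of Atp5g1 to Atp5g2 was 3.74, 4.01 and 3.59 in WT and 3.42, 4.52 and 4.12 in ACKR4_KO (log2 difference 0.08, exact permutation p = 0.6). The ratio of Atp5g3 to Atp5g1 was 1.33, 1.22 and 1.24 in WT and 1.24, 1.09 and 1.08 in ACKR4_KO (log2 difference -0.16, exact permutation p = 0.3). Both ratios overlapped between the groups.

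The fold changes of the remaining complex V genes spread widely. Atp5e, the epsilon subunit of the central stalk, was at 275, 314 and 247 CPM in WT and 296, 450 and 608 CPM in ACKR4_KO. Its log2 fold change was 0.70 (SE 0.25), with an edgeR adjusted p of 0.661, and 0.43 without replicate 3. Atp5k, the e subunit that helps the enzyme to form dimers, was at 92.6, 99.7 and 101 CPM in WT and 103, 171 and 371 CPM in ACKR4_KO. In TMM-scaled CPM all ACKR4_KO libraries lay above WT, with ACKR4_KO replicate 1 at 103 CPM just above WT replicate 3 at 101 CPM. This separation also hangs on the scaling of the libraries. The log2 fold change of Atp5k was 1.14 (SE 0.44), but 0.49 without replicate 3. Atp5o, the subunit that confers oligomycin sensitivity, had no overlap either and a log2 fold change of 0.50, and 0.57 without replicate 3. The other complex V genes, Atp5d, Atp5h, Atp5j, Atp5j2, Atp5l, Atp5mpl and Atp5s, lay between 0.29 and 0.61. Atp5j overlaps Gabpa on the opposite strand, whose row held 3680 reads, 11.7% of the number in the Atp5j row.

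**Figure D5:**
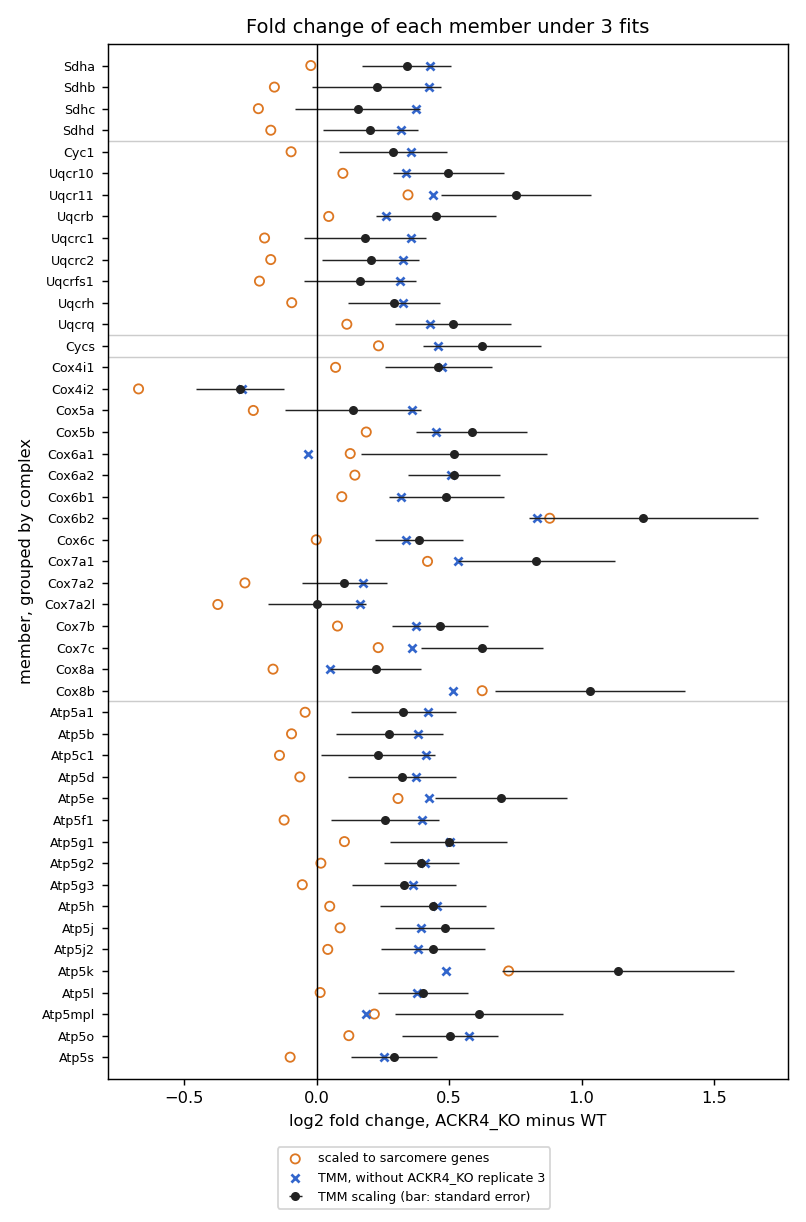
Log2 fold change of each tested gene (ACKR4_KO minus WT) with TMM scaling and its standard error in black, with library sizes set to the sarcomere genes in orange, and with TMM scaling but without ACKR4_KO replicate 3 in blue. The median is 0.40 with TMM, 0.02 relative to sarcomere genes and 0.38 without replicate 3.

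Assembly factors had a log2 fold change above 0 in 4 of 4 genes for complex II, 6 of 6 for complex III, 20 of 23 for complex IV and 6 of 6 for complex V, with medians of 0.15, 0.30, 0.25 and 0.26. Over all genes tested, 52% had a log2 fold change above 0, and the sarcomere genes had a median of 0.30. None of the assembly factors passed by edgeR. At an unadjusted p under 0.05 by edgeR there were 0, 1, 3 and 2 genes, all higher, where 3.81% of all genes were higher. Uqcc2, a complex III assembly factor, was at a mean of 67.4 ± 1.26 CPM in WT against 94.6 ± 27.2 CPM in the knockout libraries (± SD, n = 3 each). Cox14, needed for translation and assembly of the largest complex IV subunit, was at 113 ± 9.90 CPM and 150 ± 28.3 CPM. Atpif1, which inhibits ATP hydrolysis by complex V, was at 64.7 ± 3.39 CPM and 86.3 ± 12.5 CPM. The last list includes Atp5s, which is also among the 47 genes. Hccs, which attaches heme to cytochrome c, had a log2 fold change of 0.15. Ndufa4, a complex IV subunit first assigned to complex I, had 0.41, near the median of the named complex IV genes.

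The mitochondrially encoded subunits had fold changes of the same sign with a wide spread. mt-Co1, the catalytic subunit of complex IV, had a log2 fold change of 0.12 (SE 0.28), and mt-Cytb, of complex III, 0.14 (SE 0.23). The rows of mt-Co2, mt-Co3, mt-Atp6 and mt-Atp8 held far fewer reads, and mt-Co3 had 9689, 1291 and 6390 reads in WT and 9938, 5636 and 21491 in ACKR4_KO. The ratio of the 6 summed mitochondrial subunits to the nuclear genes of complexes III to V was 4.99, 3.60 and 5.06 in WT and 4.36, 4.01 and 3.12 in ACKR4_KO, with overlap (exact permutation p = 0.3).

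Of 12 regulators of mitochondrial genes, 8 had a log2 fold change above 0, where 52% of all genes did, and 0 passed by edgeR. At an unadjusted p under 0.05 by edgeR, 4 of the 12 were higher, where 3.81% of all genes were. The 4 regulators were Ppargc1a (PGC-1 alpha), its relative Ppargc1b, the nuclear receptor Ppara and Esrra (ERR alpha). Ppargc1a was at a mean of 46.3 ± 6.28 CPM in WT against 81.3 ± 18.4 CPM in the knockout libraries, and Esrra at 149 ± 16.9 CPM against 196 ± 27.8 CPM (± SD, n = 3 each). Ppargc1b was at 6.07, 5.76 and 5.17 CPM in WT and 7.59, 9.12 and 17.1 CPM in ACKR4_KO. Ppara was at 16.65, 12.76 and 16.18 CPM in WT and 29.96, 25.41 and 16.32 CPM in ACKR4_KO, with overlap between the groups. Nrf1, Gabpa, Yy1 and Tfam had log2 fold changes of 0.05, 0.02, -0.05 and -0.09.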

How the data were processed

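The 6 RNA-seq libraries of infarcted hearts were analysed from the deposited table of raw counts, whole numbers of reads per Ensembl gene. The submitters' processing notes list HISAT2, HTSeq 0.6.0, CASAVA 1.8.2 and build mm10 and, as read here, neither an annotation release nor a strand setting. Symbols were found for 54409 of 54532 rows. Genes were kept with filterByExpr of edgeR 4.0.16 (minimum count 10, minimum total 15), which left 14406, libraries were scaled by TMM, and ACKR4_KO was tested against WT by the robust two-sided quasi-likelihood test, with p adjusted over all genes by Benjamini-Hochberg and a threshold of 0.05. CPM and log2 values (prior count 2) were computed from these counts, and isoform ratios were compared by exact permutation tests. Alternatives included DESeq2 1.42.0 and limma 3.58.1 (R 4.3.3), fitted to the same counts; the edgeR script was tested on simulated data. Lengths and coordinates came from GENCODE M21 (GRCm38, the assembly of mm10). Genes with near-identical pseudogenes can lose or gain reads; Atp5l2-ps, left out, held 87. At 9422462 reads, the smallest library, 3 reads are 0.318 CPM before TMM scaling; this covers counting error only. The genes, lists and tests were chosen with earlier results of these data known. Named in full were, per complex, the 2 highest per length, the 2 with the smallest p and the 2 with the lowest fold change, plus the isoform pairs; Cox5a, Atp5k, the other genes listed for not overlapping between groups, those beside opposite-strand genes, and the assembly factors and regulators in the text were picked with their values in view.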

Additional observations from a re-analysis of the deposited data

How the results depend on the processing

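No gene of complexes II to V passed under any of the 18 alternatives. Over all genes edgeR called 0, against 2 when scaled to sarcomere genes, 6 with the replicate block and 39 by DESeq2, and between 0 and 1 with each library left out. The replicate numbers were not shown to pair the hearts. Deviations of same-numbered libraries correlated at 0.067, 0.053 and 0.125, and those of differently numbered libraries at between -0.121 and 0.0625. These values do not settle whether the hearts were paired. With the replicate block 45 of the genes of complexes II to V were higher, their median was 0.39 and none of them was called. The median lay between 0.29 (without ACKR4_KO replicate 2) and 0.54 (without ACKR4_KO replicate 1) with each library left out, the count of higher genes between 39 and 46, and the medians by complex between -0.032 and 0.40 (II), 0.13 and 0.41 (III), 0.36 and 0.62 (IV) and 0.28 and 0.54 (V). Scaled to sarcomere genes, 25 genes were higher, the median was 0.016, and by complex it was -0.17 (II), -0.094 (III), 0.087 (IV) and 0.016 (V). That scaling turned 21 genes: Cyc1 (-0.096), Uqcrc2 (-0.17), Cox5a (-0.24), Cox6c (-0.0013), Atp5d (-0.063), Atp5s (-0.10), Sdha (-0.022), Sdhb (-0.16), Sdhc (-0.22), Sdhd (-0.17), Uqcrc1 (-0.20), Uqcrfs1 (-0.22), Uqcrh (-0.094), Cox7a2 (-0.27), Cox7a2l (-0.37), Cox8a (-0.16), Atp5a1 (-0.043), Atp5b (-0.094), Atp5c1 (-0.14), Atp5f1 (-0.12) and Atp5g3 (-0.054); by its construction it takes out the shift of the summed sarcomere reads. Without ACKR4_KO replicate 2, Sdhb (-0.086), Sdhc (-0.12), Uqcrc1 (-0.072), Uqcrfs1 (-0.071), Cox7a2 (-0.034), Cox7a2l (-0.20) and Cox5a (-0.17) turned, and Cox6a1 (-0.031) without ACKR4_KO replicate 3; with a library left out the highest values were 0.42 for Sdhb, 0.38 for Sdhc, 0.36 for Uqcrc1, 0.31 for Uqcrfs1, 0.20 for Cox7a2, 0.16 for Cox7a2l and 0.78 for Cox6a1. Cox7a2l, near 0, also turned with upper-quartile factors (-0.015), total counts only (-0.10), no low-count filter (-0.0014), mitochondrial genes removed (-0.0059), the replicate block (-0.026), limma-voom (-0.024), the length and GC correction (-0.014) and without WT replicate 3 (-0.043). With libraries left out, the log2 differences of isoform ratios lay between -0.080 and 0.54 for Cox6a2 over Cox6a1, -0.0073 and 0.19 for Atp5g1 over Atp5g2, -0.22 and -0.12 for Atp5g3 over Atp5g1, -1.13 and -0.39 for Cox6b1 over Cox6b2, 0.29 and 0.95 for Cox7a1 over Cox7a2, and 0.43 and 0.89 for Cox8b over Cox8a. The cause of these changes was not tested.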
